A study of Mus musculus with 2 samples.

Results

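The cells described here are Th1-like CD4 T cells of the mouse spleen at 8 days post infection (dpi) with the clone 13 strain of lymphocytic choriomeningitis virus (LCMV-cl13), measured by droplet single-cell RNA-seq. A cell barcode was a member when it held at least 1 UMI (1 counted RNA molecule) each of Cd3e and Cd4 and at least 2 UMIs in sum of Cxcr6, Il18r1 and Ccl5. It also had to hold no UMI of Cd8a, Cd8b1, Foxp3, Cd79a or Csf1r, at most 1 of Lyz2, and fewer than 2 in sum of the follicular genes Izumo1r, Sostdc1, Tbc1d4 and Cxcr5. This left 76 of 23397 barcodes, 26 of 14821 in the PEP-WT library and 50 of 8576 in the PEP-619WW library. The members were thus chosen by the counts of these 15 genes, and every gene of the rule is given below as a description only.

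PEP is the phosphatase encoded by Ptpn22, which damps signaling from the T cell receptor. PEP-619WW mice carry, on both chromosomes, an arginine to tryptophan change at residue 619, put into C57BL/6 by CRISPR/Cas9, the mouse counterpart of a human allele that raises the risk of autoimmune disease. PEP-WT mice were C57BL/6. Mice of the study were 6 to 12 weeks old and matched for age and sex, and both groups were infected. For each genotype the spleen cells of 4 or 5 mice were pooled and sorted as live CD45+ cells, so each genotype is 1 library, no uninfected library was compared, and the mice within a pool cannot be told apart. With 1 library per genotype there is no test and no p-value below. Intervals are exact 95% Poisson or binomial intervals, or Newcombe intervals for a difference of shares, and they cover counting error only. The labels name liver, the human line Jurkat and sorted tumor-infiltrating cells, against the spleen of the protocol text and the study's methods, and the protocol text also describes a peptide stimulation in culture that the sources used here do not tie to the sequenced cells.

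T helper 1 cells are CD4 T cells that arise in viral infection under IL-12, IL-18 and interferon signals. The transcription factor T-bet (Tbx21) with Stat4, Runx3 and Id2 directs them to make IFN-γ and chemokines, and the receptors CXCR3 and CXCR6 take them to inflamed tissue. In infection with LCMV the other main CD4 fate is the follicular helper (Tfh) cell, which rests on Bcl6 and Tcf7 and helps B cells.

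Members held 155108 UMIs in PEP-WT and 385498 in PEP-619WW. Per barcode the depth ran from 676 to 13777 with a median of 4715.5 in PEP-WT, and from 3268 to 22426 with a median of 6586 in PEP-619WW. Members of PEP-619WW were therefore deeper, and values per library are given as counts per 1000000 UMIs of its members (CPM) unless stated otherwise. Each genotype also had a second deposited run, of 9539 and 11029 barcodes, which is kept apart because the rule is set on the first run and found only 1 PEP-WT member in the second. The first run, used here, is not the one whose barcode numbers the study's methods give. In the second run 431 PEP-WT and 44 PEP-619WW barcodes held UMIs of at least 3 of 6 melanocyte genes, against 0 and 0 in the first. No member barcode of PEP-WT and 1 of PEP-619WW was among the 39 barcodes that the libraries share.

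By the marker genes the members were αβ T cells. Trac, the constant gene of the T cell receptor α chain, had UMIs in 23 of 26 PEP-WT and 49 of 50 PEP-619WW members, and Trbc2, a constant gene of the β chain, in 25 and 50. The T cell marker list summed to 7737 CPM in PEP-WT and 7764 CPM in PEP-619WW. Genes that define invariant NKT cells, γδ T cells and NK cells were at 0 UMIs in all members for Trav11, Trav11d, Traj18, Zbtb16, Tcrg-C1, Trdv4 and Ncr1. Of the other such genes, Trdc had 4 UMIs in 1 PEP-619WW member, Klrb1c 5 in 3 and Klre1 3 in 1. The zeros of the V and J segments (Trav11, Trav11d, Traj18 and Trdv4) decide little, because the libraries were read from the 3′ end of transcripts. Eomes had 4 UMIs in PEP-WT and 1 in PEP-619WW, Tyrobp, an adaptor of NK and myeloid receptors, 2 and 9, and Fcer1g, another such adaptor, 1 and 18, log2 2.86 (0.19 to 8.24). The whole list of 12 genes was at 45.1 CPM in 5 of 26 PEP-WT members and 104 CPM in 13 of 50 PEP-619WW members, and its part in the results was not tested.

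Markers of other spleen cells were present at different levels. The monocyte and macrophage list was at 941 and 1017 CPM, in 25 of 26 and 44 of 50 members, but Ly6c2, which effector T cells also express, held most of it. Without that gene it was at 316 and 316 CPM, and 5 of its 15 genes, among them Adgre1 and Fcgr1, were at 0 in both libraries. One of these 5, Csf1r, was held at 0 by the rule, which also limits Lyz2 of the same list. The dendritic cell list was at 477 and 389 CPM, in 25 and 43 members, and at 142 and 106 CPM without Bst2, an interferon-stimulated gene. Of its 11 genes 5 were at 0 in both libraries, among them Flt3, Xcr1, Clec9a and Siglech. B cell markers outside the rule had UMIs in 9 of 26 and 18 of 50 members, at 70.9 CPM in PEP-WT and 75.2 CPM in PEP-619WW. Neutrophil markers had UMIs in 8 of 26 and 36 of 50 members, at 70.9 and 176 CPM, and erythroid markers in 16 of 26 and 14 of 50, at 187 and 59.7 CPM. The plasma cell list stood apart, at 1212 CPM in PEP-WT and 10934 CPM in PEP-619WW. Its share of a barcode's UMIs had a median of 0.0952% and a maximum of 0.465% in PEP-WT, against a median of 0.177% and a maximum of 22.8% in PEP-619WW. Of the immunoglobulin κ gene Igkc, 1 PEP-619WW barcode held 2006 of 2759 UMIs. The part of these cells in the results was not tested, and 4 PEP-619WW members with over 1% immunoglobulin UMIs were left out in turn where a value below turned on them.

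The 3 genes that admitted a barcode did not do so in the same mix in both libraries. Il18r1, the binding chain of the IL-18 receptor, had UMIs in 15 of 26 PEP-WT and 46 of 50 PEP-619WW members, at 232 CPM (163 to 321) and 446 CPM (382 to 518). Cxcr6, the receptor of CXCL16, had UMIs in 14 and 19 members, at 264 and 176 CPM. Ccl5, a chemokine kept ready in effector and memory T cells, had UMIs in 24 and 40 members, at 3997 and 4301 CPM, with 281 of 620 and 392 of 1658 UMIs in the top barcode of each library. All 3 genes were seen together in 6 PEP-WT and 18 PEP-619WW members, Ccl5 with Cxcr6 alone in 7 and 0, and Il18r1 alone in 1 and 9. A like difference in Il18r1 was seen in effector CD8 T cells, which the same 3 genes chose, at 227 CPM in PEP-WT and 387 CPM in PEP-619WW.

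UMIs of these genes were also seen in barcodes of another cell type. Barcodes with at least 3 Cd79a UMIs and no Cd3e UMI, taken as B cells (7071 in PEP-WT and 3376 in PEP-619WW, median depth 2737 and 3494 UMIs), should lack these genes. A UMI of Ccl5 was nevertheless present in 10.7% of them in PEP-WT and 20.2% in PEP-619WW, and at least 2 UMIs in 2.52% and 5.75%. Whether these came from free RNA or from barcodes of 2 cells was not tested. Il18r1 was present in 1.15% and 2.37% and Cxcr6 in 0.396% and 0.977% of B cell barcodes. In CPM, Ccl5 was at 135 in PEP-WT and 129 in PEP-619WW B cell barcodes. Members that held Ccl5 and neither other gene were 4 in each genotype, and 10 of 26 PEP-WT and 10 of 50 PEP-619WW members needed Ccl5 UMIs to reach the sum of 2.

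Barcodes just inside and just outside the threshold are few, and their values are given as a description. With a sum of 1 UMI of the 3 genes (16 PEP-WT and 7 PEP-619WW barcodes), Nkg7, a cytotoxic granule protein, stood at 267 and 0 CPM, and with a sum of 2 (7 and 10 barcodes) at 704 and 389 CPM. Gzmb had 1 UMI on each side in PEP-WT and 0 in PEP-619WW, and Id2 went from 164 to 201 CPM in PEP-WT and from 108 to 175 CPM in PEP-619WW. Cxcr3 went from 41.1 to 168 CPM and from 143 to 255 CPM, and the naive T cell factor Lef1 from 328 to 268 CPM and from 394 to 94.0 CPM. Members with a sum of at least 10 (10 and 24 barcodes) had 2337 and 1643 CPM of Nkg7, 1069 and 771 CPM of the granzyme Gzmb, and 14.3 and 139 CPM of Tcf7, the factor of naive, memory and Tfh cells. Tcf7 was at 575 and 323 CPM at a sum of 1 and 436 and 336 CPM at a sum of 2, so members near the threshold were lower in Nkg7 and higher in Tcf7 than those with a large sum.

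Th1-like barcodes were a larger share of CD4 T cell barcodes in PEP-619WW than in PEP-WT. CD4 barcodes here are those that met the rule apart from its effector and follicular sums. Barcodes with a Foxp3 UMI, as in regulatory T cells, were thus left out of the total. They were 26 of 203 CD4 barcodes in PEP-WT, 12.8% (8.54 to 18.2), and 50 of 150 in PEP-619WW, 33.3% (25.9 to 41.5), a difference of 20.5 percentage points (11.7 to 29.3). Of all barcodes they were 0.175% (0.115 to 0.257) and 0.583% (0.433 to 0.768). CD4 barcodes as a whole were 1.37% and 1.75% of all barcodes, so the difference lay mainly within the CD4 T cells. Tfh-like barcodes, which had the follicular sum but not the effector sum, were 34.5% (28.0 to 41.5) and 24.0% (17.4 to 31.6), and barcodes with neither sum were 39.4% and 18.0%. Barcodes with both sums, which the rule leaves out, were 13.3% and 24.7%. When the follicular genes were ignored, the effector sum alone took 26.1% (20.2 to 32.7) of CD4 barcodes in PEP-WT and 58.0% (49.7 to 66.0) in PEP-619WW. The follicular sum, with the effector genes ignored, took 47.8% (40.7 to 54.9) and 48.7% (40.4 to 57.0), a difference of 0.883 points (-9.55 to 11.3), so the lower share of Tfh-like barcodes went with more barcodes that held both sums.

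Depth bears on these shares, because a deeper barcode reaches 2 UMIs more easily. With each barcode thinned to 2000 UMIs, the shares were 9.68% (9 of 93) and 24.2% (16 of 66), a difference of 14.6 points (2.92 to 27.0), with 4181 PEP-WT and 2429 PEP-619WW barcodes left out as shallower. At 1000 UMIs they were 6.52% (3 of 46) and 12.5% (3 of 24), and the interval of the difference of 5.98 points ran from -7.70 to 25, so no difference was detectable at that depth. The share of B cell barcodes with a Ccl5 UMI, 10.7% in PEP-WT and 20.2% in PEP-619WW, was higher in the same library. In CPM the level of Ccl5 in those barcodes was not higher, at 135 and 129. The part of this background in the result was not tested. In the second run 70 of 152 CD4 barcodes of PEP-619WW met the rule, but only 1 of 2 did in PEP-WT, so that run gives no usable comparison.

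**Figure D1:**
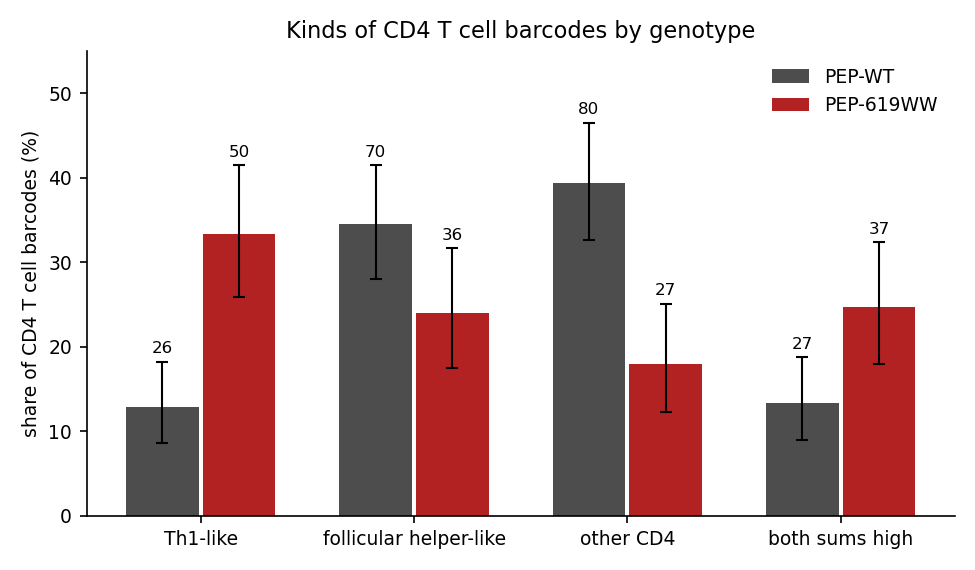
Share of CD4 T cell barcodes (percent, y axis) that fell into each of the 4 kinds set by the effector and follicular sums, for PEP-WT (203 barcodes) and PEP-619WW (150 barcodes). Bars are shares, lines are exact 95% binomial intervals and the numbers are barcodes. The Th1-like bar stands at 12.8% in PEP-WT and 33.3% in PEP-619WW.

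Against the other T cells of the same library, members lay between Tfh-like CD4 and effector CD8 T cells in cytotoxic genes. These differences include genes that follow those of the rule, and they are descriptions. Gzmb stood at 496 CPM in PEP-WT and 371 CPM in PEP-619WW members, against 2.48 and 4.39 CPM in Tfh-like and 1637 and 1996 CPM in effector CD8 barcodes. Nkg7 was at 1515 and 1014 CPM in members, 121 and 127 CPM in Tfh-like and 2091 and 1791 CPM in effector CD8 barcodes. Ifng, which encodes IFN-γ, was at 297 and 202 CPM in members, 81.7 and 26.4 CPM in Tfh-like and 266 and 328 CPM in effector CD8 barcodes. Tbx21 was sparse throughout, at 51.6 and 49.3 CPM in members, 14.9 and 8.79 CPM in Tfh-like and 77.3 and 80.7 CPM in effector CD8 barcodes. The whole list of Th1 transcription factors set members less apart. In PEP-WT it was at 1696 CPM (1497 to 1913) in members and 1578 CPM (1457 to 1705) in Tfh-like barcodes, with overlapping intervals. In PEP-619WW it was at 2158 CPM (2014 to 2310) and 1529 CPM (1372 to 1698). Effector CD8 barcodes had 2180 and 2519 CPM. Members were thus well below effector CD8 T cells in Gzmb. In Ifng they were below them in PEP-619WW (log2 -0.70, -1.05 to -0.37), while in PEP-WT the interval included no difference (0.16, -0.30 to 0.58). Without the top barcode of each library Ifng in members was at 135 and 166 CPM.

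Genes outside the rule were ranked by the smaller of the ratios over Tfh-like barcodes in both libraries. The largest was that of Gzmb, against 1 UMI in each Tfh-like set, at log2 7.65 (5.13 to 13.0) in PEP-WT and 6.40 (3.90 to 11.7) in PEP-619WW. High in this order were also Lgals3, which encodes galectin-3 (1012 against 84.2 CPM in PEP-WT and 812 against 26.4 CPM in PEP-619WW), Nkg7, and Ly6c2, a surface marker of effector T cells (625 against 81.7 CPM and 700 against 57.1 CPM). Rasgrp2, Ifngr1, Gm2682, Ctla2a, Plac8 and Anxa6 completed the 10 genes. On the other side stood Angptl2 (log2 -3.62, -6.70 to -1.71, and -3.80, -5.49 to -2.46) with Cxcl10, Bmyc, Nt5e, Cd200, Rgs10, Tmem38b, Tiam1, Hivep3 and Tox2, of which Angptl2, Cd200, Rgs10 and Tox2 are on the follicular list used here. Not all of this was seen in the second run of PEP-619WW (70 members and 18 barcodes that met the Tfh-like thresholds). Those 18 held 0 UMIs of Cxcr5 and Sostdc1 and met the follicular sum through Izumo1r and Tbc1d4 alone. They are thus not matched to the Tfh-like barcodes of the first run, where Cxcr5 and Sostdc1 were present. Angptl2, Cxcl10 and Tox2 had 0 UMIs in these 18 barcodes, so that run gives no usable ratio for them. Gzmb was there at log2 0.81 (-0.53 to 2.51) and Ctla2a lower in members, at -0.95 (-1.55 to -0.32). Nkg7, Ly6c2, Lgals3 and Plac8 were again higher, with intervals above 0. Intervals of Rasgrp2, Ifngr1, Anxa6, Nt5e, Cd200 and Rgs10 included no difference. Compared with the CD4 barcodes that had neither sum, members were lower in the lymph node homing gene Ccr7 (19.3 against 159 CPM and 25.9 against 238 CPM). Compared with effector CD8 barcodes they were higher in Tnfrsf4, which encodes OX40 (245 against 26.5 CPM and 218 against 22.6 CPM), and in the transcription factor Maf (226 against 23.7 CPM and 236 against 34.2 CPM), and lower in the NK receptor gene Klrd1 (51.6 against 272 CPM and 57.1 against 386 CPM).

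**Figure D2:**
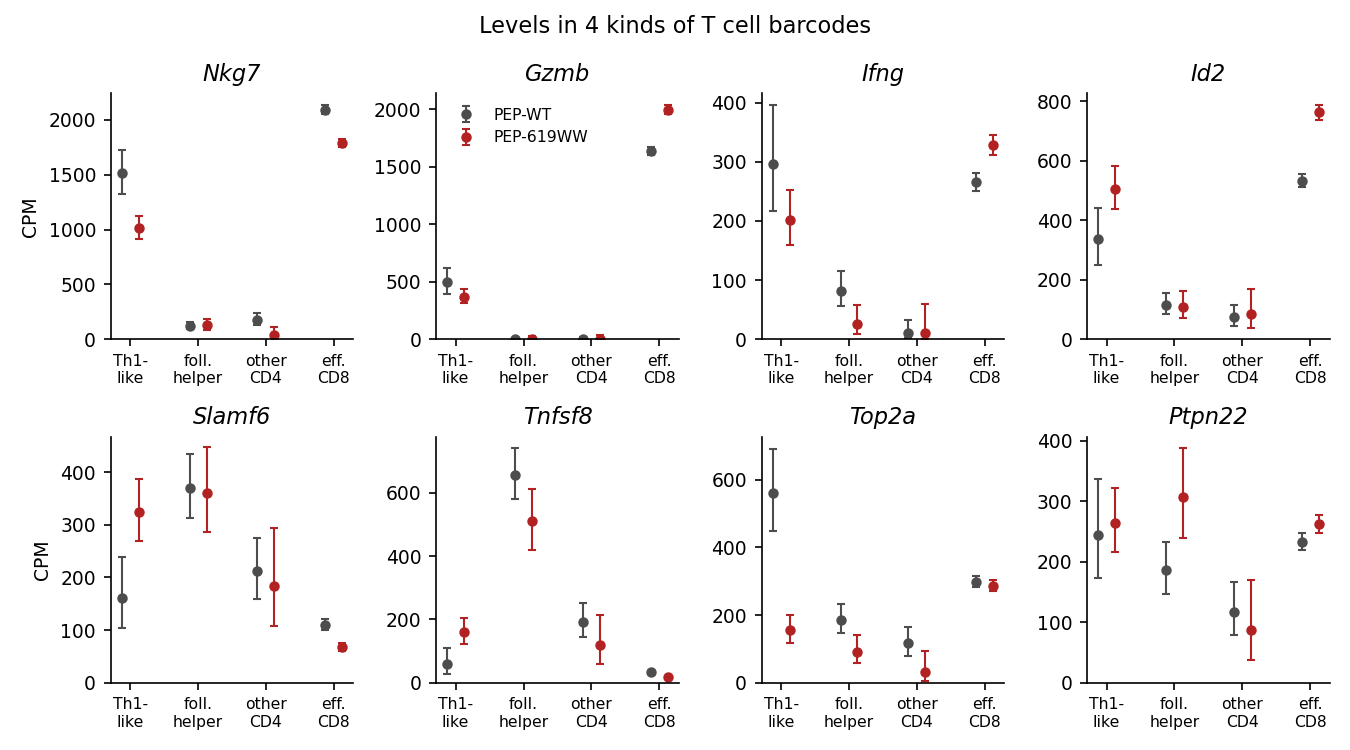
Level (CPM, y axis) of 8 genes in Th1-like, Tfh-like, other CD4 and effector CD8 barcodes of PEP-WT and PEP-619WW. Points are CPM over the barcodes of a kind and lines are exact 95% Poisson intervals. Nkg7 and Gzmb in Th1-like barcodes lie between the Tfh-like and effector CD8 levels, and Top2a is 561 CPM in PEP-WT against 156 CPM in PEP-619WW members.

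Among the T cell gene lists used here, the medians farthest from that of all genes between the genotypes were those of cell division, which were lower in PEP-619WW, while most genes of the follicular, cytokine receptor, homing and Th1 transcription factor lists were higher. Of 1592 genes with at least 50 UMIs in the members of both libraries together, 53 (3.33%) were at least 2-fold higher and 36 (2.26%) at least 2-fold lower in PEP-619WW. With members thinned to 2000 UMIs, 379 genes reached that minimum and these numbers were 8 and 4. Of 3786 genes with at least 20 UMIs, 6.89% were at least 2-fold higher and 4.99% at least 2-fold lower, and the median log2 ratio was -0.03. A ratio here is PEP-619WW over PEP-WT, and called means only this size. When the barcode with the most UMIs of each gene was left out in both libraries, 1367 genes reached the minimum. The number of lower genes was then 19 instead of 36 and that of higher genes 63 instead of 53. Without barcodes over 20000 UMIs, 49 of 1517 genes were higher and 49 lower.

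Ptpn22 itself was at 245 CPM in PEP-WT (21 of 26 members) and 265 CPM in PEP-619WW (39 of 50), a log2 ratio of 0.11 (-0.44 to 0.69). Its level did not differ beyond counting error, and a change of 1 residue cannot be seen in counts per gene, so these values do not check the genotype labels. In Tfh-like barcodes Ptpn22 stood at 186 and 308 CPM and in effector CD8 barcodes at 233 and 262 CPM. Of 26 genes of proximal T cell receptor signaling with at least 20 UMIs, 16 were higher and 10 lower in PEP-619WW, none by 2-fold, with a median log2 ratio of 0.05. The kinase gene Fyn was at 219 and 358 CPM (log2 0.71) and the phosphatase gene Ptprc, which encodes CD45, at 967 and 1256 CPM (0.38). The kinase gene Zap70 went the other way, at 239 and 163 CPM (-0.55), as did Cd3g, a chain of the receptor complex, at 1115 and 830 CPM (-0.43). Without the top barcodes the intervals of Zap70 (-1.28 to 0.07) and Cd3g (-0.56 to 0.02) included no difference, while those of Fyn and Ptprc did not.

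Cell cycle genes were lower in PEP-619WW members almost without exception. All 20 S phase genes with at least 20 UMIs had a ratio below 1, 12 of them by at least 2-fold, with a median log2 ratio of -1.17. Over all genes 4.99% were at least 2-fold lower. Of 28 genes of G2 and mitosis, 26 were lower, 10 of them by at least 2-fold, with a median of -0.86, and Plk1 (0.33) and Tacc3 (0.40) were the 2 that were higher. Summed over all its genes, the S phase list was at 3591 CPM in PEP-WT and 1790 CPM in PEP-619WW, log2 -1.0 (-1.17 to -0.84), and the G2 and mitosis list at 8169 and 4475 CPM, log2 -0.87 (-0.97 to -0.76). When members were chosen by at least 1 UMI of Cxcr6 or Il18r1, without Ccl5 (32 and 49 barcodes), the median over the G2 and mitosis genes was -0.33 and that over the S phase genes -1.0. With a sum of at least 3 UMIs the medians were -0.54 and -0.71. The UMIs were concentrated, as the 5 members richest in them held 62.7% of the S phase and 67.9% of the G2 and mitosis UMIs in PEP-WT, and 49.1% and 63.7% in PEP-619WW.

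The single genes show the same. Top2a, the topoisomerase that untangles chromosomes, was at 561 CPM in PEP-WT (14 of 26 members) and 156 CPM in PEP-619WW (19 of 50), log2 -1.85 (-2.35 to -1.36). Mki67, the proliferation marker Ki-67, was at 400 CPM (12 of 26) and 140 CPM (10 of 50), log2 -1.51. The mitotic cyclin gene Ccna2 was at 129 and 28.5 CPM (-2.18), and Ccnb2 at 206 and 112 CPM (-0.89). Among replication genes, Chaf1a, a histone chaperone, was at 90.3 and 15.6 CPM (-2.54), Rrm2, which makes deoxynucleotides, at 161 and 49.3 CPM (-1.71), the helicase gene Mcm7 at 161 and 64.9 CPM (-1.31) and the clamp gene Pcna at 316 and 163 CPM (-0.95). Hmgb2, a chromatin protein that was seen in nearly every member (23 of 26 and 50 of 50), was at 2824 and 1735 CPM (-0.70). Among genes with at least 50 UMIs, and outside the classes left out (immunoglobulin, hemoglobin, ribosomal, mitochondrial and gate genes), the 12 lowest ratios were those of Top2a, Nasp, Dtymk, Mki67, Smc2, Pclaf, Hnrnpab, Hist1h1b, Tyms, Lmnb1, Txndc9 and Hist1h2ae. Of these Nasp and the histone genes package DNA, Dtymk and Tyms make thymidine nucleotides, Smc2 condenses chromosomes and Pclaf binds the replication clamp. Hist1h1b rested on few barcodes, 10 of 26 at 709 CPM and 7 of 50 at 254 CPM.

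The promoters of 3 of these genes are shown, because genes of G2 and mitosis and genes of S phase are known to be driven through different short elements. Each is the stretch of 250 bases before the RefSeq transcription start in GRCm38.p6, written 5′ to 3′ on the gene's strand, here the minus strand, with motifs in capitals: TTTGAA (the CHR element) and CCAAT, each on either strand, so also as TTCAAA and ATTGG, and GCGGGAA, a form of the E2F site. The Top2a stretch is chr11:99024190-99024439, that of Ccnb2 chr9:70421555-70421804 and that of Mcm7 chr5:138171884-138172133.
Top2a: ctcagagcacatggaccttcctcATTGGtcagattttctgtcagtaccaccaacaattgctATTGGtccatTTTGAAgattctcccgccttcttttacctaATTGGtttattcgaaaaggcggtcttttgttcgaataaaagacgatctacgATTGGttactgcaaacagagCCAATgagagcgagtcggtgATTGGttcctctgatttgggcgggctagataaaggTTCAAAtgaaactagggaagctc
Ccnb2: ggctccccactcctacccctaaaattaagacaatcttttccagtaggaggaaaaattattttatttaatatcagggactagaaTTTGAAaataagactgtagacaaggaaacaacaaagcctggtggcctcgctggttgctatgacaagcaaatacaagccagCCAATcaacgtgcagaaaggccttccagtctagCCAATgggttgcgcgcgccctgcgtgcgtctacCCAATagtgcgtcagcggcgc
Mcm7: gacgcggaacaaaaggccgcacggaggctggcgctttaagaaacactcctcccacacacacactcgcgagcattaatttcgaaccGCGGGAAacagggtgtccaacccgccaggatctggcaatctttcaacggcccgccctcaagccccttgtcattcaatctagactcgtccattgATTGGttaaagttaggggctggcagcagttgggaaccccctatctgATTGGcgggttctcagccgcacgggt
The Top2a stretch holds 2 TTTGAA and 6 CCAAT matches, that of Ccnb2 1 and 3, and that of Mcm7 1 GCGGGAA and 2 CCAAT matches. Over the promoters of the lists, TTTGAA was in 11 of 28 of the G2 and mitosis genes with a RefSeq entry (39.3%) and 4 of 26 of the S phase genes (15.4%), against 16.3% of 27025 promoters of the same length. GCGGGAA was in 0 of 28, 10 of 26 (38.5%) and 3.84%, and CCAAT in 24 of 28 (85.7%), 17 of 26 (65.4%) and 34.5%. A match is a run of letters and not a measured binding site.

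A smaller share of PEP-619WW members was rich in cell cycle UMIs, though with overlapping intervals. At a common depth of 2000 UMIs, 12 of 25 PEP-WT members (48.0%, 27.8 to 68.7) and 12 of 50 PEP-619WW members (24.0%, 13.1 to 38.2) held at least 10 UMIs of the S phase and G2 and mitosis lists, with medians of 8 and 5.5 UMIs. At least 5 such UMIs were held by 16 of 25 (64%) and 28 of 50 (56%), a smaller difference. Per 10000 UMIs, the G2 and mitosis genes had a lowest, median and highest value of 0, 22.2 and 298 in PEP-WT and 4.75, 12.2 and 284 in PEP-619WW, and the S phase genes had medians of 12.3 and 9.39 and highest values of 93.5 and 73.4. The groups overlapped over almost their whole range, and both held members with many such UMIs. The lower level in PEP-619WW was not limited to Th1-like barcodes. The G2 and mitosis list was at 3717 and 1278 CPM in Tfh-like barcodes, at 2356 and 670 CPM in CD4 barcodes with neither sum, and at 6431 and 5305 CPM in effector CD8 barcodes. In effector CD8 barcodes the share with at least 10 UMIs at the common depth was 37.2% and 35.4%.

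**Figure D3:**
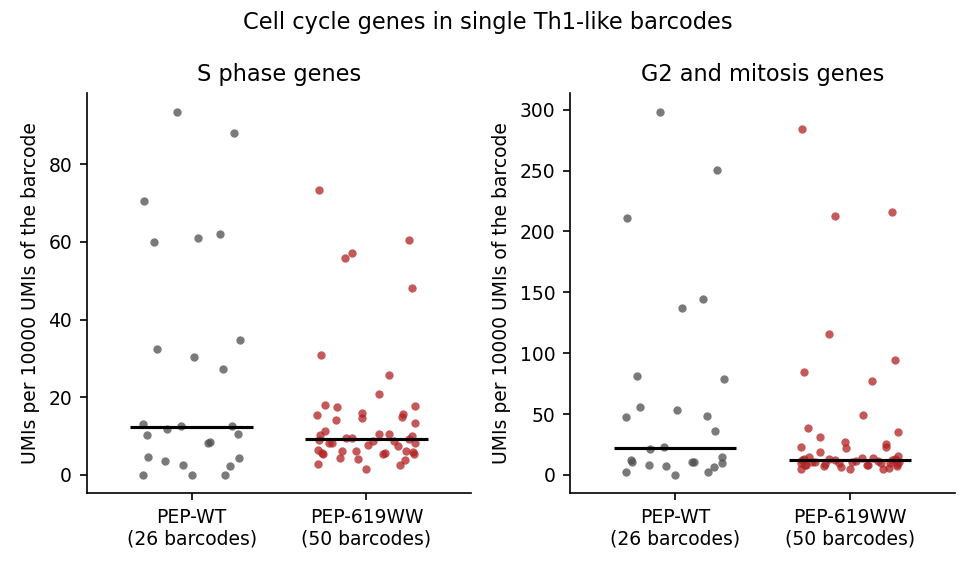
UMIs of the S phase list and of the G2 and mitosis list per 10000 UMIs (y axes) in each Th1-like barcode of PEP-WT (26 points) and PEP-619WW (50 points). Black lines are medians, 12.3 and 9.39 for S phase and 22.2 and 12.2 for G2 and mitosis, and the points of the genotypes overlap.

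Transcription factors of the Th1 program were slightly higher in PEP-619WW members, but T-bet was not. Of 11 genes with at least 20 UMIs, 9 were higher and 2 lower, none by 2-fold, with a median log2 ratio of 0.31. The list summed to 1696 and 2158 CPM, log2 0.35 (0.15 to 0.55). Its sum was also higher in effector CD8 barcodes, at 0.21 (0.17 to 0.25), but not in Tfh-like (-0.05) or other CD4 (-0.30) barcodes. Tbx21 itself was at 51.6 CPM (6 of 26 members) and 49.3 CPM (15 of 50), log2 -0.07. Id2, an inhibitor of E proteins that favors Th1 over Tfh fate, was at 335 CPM (13 of 26) and 506 CPM (39 of 50), log2 0.59 (0.15 to 1.06). Stat4, the transducer of IL-12 signals, was at 64.5 and 127 CPM, log2 0.98 (-0.02 to 2.13). Bhlhe40, a cofactor of cytokine production, was at 161 and 239 CPM and Runx3 at 90.3 and 119 CPM.

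Receptor genes for cytokines were mostly higher as well. Of 11 genes, 10 were higher and 1 lower in PEP-619WW, with a median log2 ratio of 0.49. At least 2-fold higher were 2, where the share over all genes was 6.89%. Il18rap, the signaling chain of the IL-18 receptor, whose partner Il18r1 is a gene of the rule, was at 96.7 CPM (7 of 26 members) and 218 CPM (34 of 50), log2 1.17 (0.37 to 2.07). Il12rb2, the inducible chain of the IL-12 receptor, was at 12.9 and 46.7 CPM with an interval that included no difference (log2 1.86, -0.21 to 5.01). Il2rb, a chain of the receptors for IL-2 and IL-15, was the gene that was lower, at 316 and 272 CPM. The higher level was not limited to members. Summed, the list had a log2 ratio of 0.32 in members and 0.39 in Tfh-like barcodes. It was 0.28 in CD4 barcodes with neither sum and 0.27 in effector CD8 barcodes.

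Cytokine and chemokine genes were concentrated in few barcodes, and their ratios depended on them. Ifng was at 297 CPM (10 of 26 members) and 202 CPM (23 of 50), log2 -0.55 (-1.10 to 0.01), but 1 PEP-WT barcode held 25 of 46 UMIs, and without the top barcode of each library the values were 135 and 166 CPM. Ccl4, a chemokine of activated effector cells, was at 1322 CPM (9 of 26) and 1105 CPM (12 of 50), with 123 of 205 PEP-WT UMIs in 1 barcode, and at 529 and 812 CPM without the top barcodes. Ccl3 turned likewise from log2 -0.51 to 0.55. Csf2, which encodes GM-CSF, was at 0 in PEP-WT and had 78 UMIs in PEP-619WW, but 76 of them were in 1 barcode. More evenly spread was Tnfsf8, the CD30 ligand, at 58.0 CPM (6 of 26) and 161 CPM (24 of 50), log2 1.47 (0.45 to 2.67). The list as a whole had 5 genes higher and 4 lower, with a median of 0.15.

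Cytotoxic genes did not share a direction. Of 14 genes, 8 were higher and 6 lower in PEP-619WW, 3 and 2 of them by 2-fold, and the list summed to 4429 and 4265 CPM. Over all genes the shares at least 2-fold higher and lower were 6.89% and 4.99%. Nkg7 was at 1515 CPM (20 of 26 members) and 1014 CPM (44 of 50), log2 -0.58 (-0.82 to -0.34), with 27 UMIs in the top PEP-WT barcode and 23 in that of PEP-619WW. Per barcode and 10000 UMIs its median was 8.79 in PEP-WT and 11.4 in PEP-619WW and its highest value 70.4 and 39.5, so the lower sum in PEP-619WW went with fewer very high members and not with a lower median. The pore-forming protein gene Prf1 was at 83.8 and 36.3 CPM (-1.21, -2.40 to 0.0017), and Gzmb at 496 CPM (11 of 26) and 371 CPM (22 of 50), log2 -0.42, or -0.02 without the top barcodes. Ctsw, a cathepsin of cytotoxic granules, was higher, at 58.0 CPM (7 of 26) and 171 CPM (30 of 50), log2 1.56 (0.50 by means over barcodes), and so was Serpinb9, an inhibitor of granzyme B, at 51.6 and 104 CPM, though with an interval that included no difference. Gzma was at 45.1 and 368 CPM, but 140 of 142 PEP-619WW UMIs came from 1 barcode, and its log2 ratio went from 3.03 to -1.31 (-5.10 to 2.47, on 2 UMIs each) without the top barcodes.

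Homing and adhesion genes were mostly higher in PEP-619WW, 13 of 14, with a median log2 ratio of 0.36 and sums of 3804 and 4532 CPM. Summed, the list had a log2 ratio of 0.25 in members and 0.54 in CD4 barcodes with neither sum. It was 0.14 in effector CD8 and -0.06 in Tfh-like barcodes. The integrin gene Itgb1 was at 251 CPM (13 of 26 members) and 524 CPM (37 of 50), log2 1.06 (0.56 to 1.59). It was the only gene of the list past 2-fold, where 6.89% of all genes were at least 2-fold higher. Cxcr3, the receptor of interferon-induced chemokines, was at 161 and 218 CPM, the selectin ligand gene Selplg at 258 and 355 CPM, and Ly6c2 at 625 and 700 CPM. Klf2, a factor of recirculating T cells, was lower, at 574 and 449 CPM (-0.35), but at -0.14 (-0.55 to 0.28) without the top barcodes.

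Most genes of the follicular helper list outside the rule were higher in PEP-619WW members, although the rule kept barcodes low in 4 other follicular genes. Of 13 genes, 11 were higher, 5 of them by at least 2-fold, where the share over all genes was 6.89%. The list had a median log2 ratio of 0.66 and summed to 1889 and 2576 CPM, log2 0.45 (0.26 to 0.64). The median was 0.33 by means over barcodes, 0.39 with members thinned to 2000 UMIs and 0.34 with a sum of at least 3 in the rule. Slamf6, a receptor of memory-like and Tfh cells, was at 161 CPM (12 of 26 members) and 324 CPM (34 of 50), log2 1.01 (0.38 to 1.69). The gene 2310001H17Rik was at 103 and 270 CPM (1.39), Rgs10, a regulator of G protein signaling, at 83.8 and 179 CPM (1.09), and Cd200, an inhibitory ligand, at 25.8 and 77.8 CPM (1.59). Tcf7, the factor that joins this list and the memory list, was at 219 and 254 CPM, and Maf at 226 and 236 CPM. Pdcd1 was 1 of the 2 genes that were lower, at log2 -0.34 (-1.05 to 0.40) without the top barcodes. The study assigns Tnfsf8, Rgs10 and Cd200 of this list to activated and effector CD4 T cells, in the same cluster as its Tfh genes. Levels in members stayed below those of Tfh-like barcodes for Tnfsf8 (656 and 510 CPM there), while for Slamf6 (369 and 360 CPM there) PEP-619WW members came within their intervals.

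**Figure D4:**
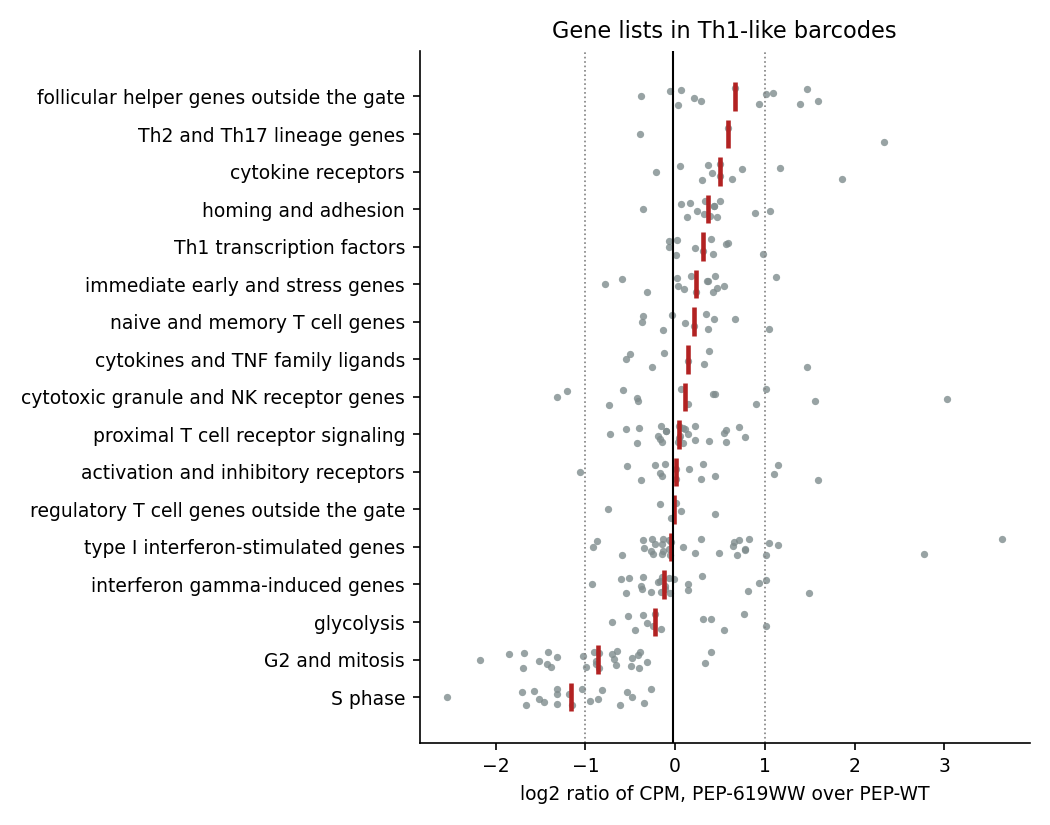
Log2 ratio, PEP-619WW over PEP-WT (x axis), of each gene with at least 20 UMIs in Th1-like barcodes, by gene list. Points are genes, red bars list medians, the black line the median over all 3786 genes (-0.03) and dotted lines a 2-fold ratio. Csf2, at 0 in PEP-WT, is not drawn. The S phase (-1.17) and G2 and mitosis (-0.86) medians lie lowest and the follicular helper median (0.66) highest.

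Of the naive and memory list, 7 genes were higher and 4 lower, with a median of 0.21. The survival gene Bcl2 was at 142 CPM (9 of 26 members) and 293 CPM (33 of 50), log2 1.05 (0.38 to 1.78). It was the only gene of the list past 2-fold, where 6.89% of all genes were at least 2-fold higher. Bcl2l11, which encodes the BH3-only protein BIM that promotes cell death, was higher too, at 51.6 CPM (6 of 26) and 153 CPM (26 of 50), log2 1.57. Il7r, the receptor of the survival cytokine IL-7, was at 168 and 215 CPM. The lists of activation and inhibitory receptors (9 higher, 7 lower, median 0.01) and of regulatory T cell genes (3 and 3, median -0.02) had medians near that of all genes. Of the 16 activation and inhibitory receptors, 3 were at least 2-fold higher and 1 at least 2-fold lower. Over all genes the shares were 6.89% and 4.99%. Pdcd1, which encodes PD-1, was at 200 and 153 CPM, Lag3 at 193 and 166 CPM, Ctla4 at 142 and 143 CPM and Tox, a factor of exhausted T cells, at 258 and 233 CPM. Of the Th2 and Th17 lineage genes 3 reached 20 UMIs, among them Il1rl1, the IL-33 receptor gene, at 12.9 and 64.9 CPM.

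Interferon-stimulated genes were split. Of 33 type I genes, 16 were higher and 17 lower in PEP-619WW, with a median log2 ratio of -0.05. At least 2-fold higher were 5 and at least 2-fold lower 0, where over all genes the shares were 6.89% and 4.99%. The sign of the median was not stable, at 0.079 without Ccl5 in the rule and 0.10 without the top barcodes, and at -0.14 thinned to 2000 UMIs and -0.22 with a sum of at least 3. The list summed to 11205 and 9837 CPM, log2 -0.19 (-0.27 to -0.11). The lower sum was not limited to members, at log2 -0.39 (-0.47 to -0.32) in Tfh-like barcodes. It was -0.18 (-0.28 to -0.07) in CD4 barcodes with neither sum and -0.56 (-0.58 to -0.54) in effector CD8 barcodes. In members the lower sum came with Ifi27l2a, the most abundant of these genes, at 5100 CPM (25 of 26 members) and 3393 CPM (49 of 50), log2 -0.59 (-0.72 to -0.46). In contrast Isg15, a ubiquitin-like protein, was at 174 CPM (12 of 26) and 285 CPM (17 of 50), log2 0.71 (0.09 to 1.38), or 0.67 (-0.02 to 1.42) without the top barcodes. Stat2, on 2 PEP-WT UMIs, was at 12.9 and 88.2 CPM (2.77, 0.81 to 5.88) and Ifit1, an RNA sensor, on 1 PEP-WT UMI, at 6.45 and 80.4 CPM (3.64, 1.06 to 8.99). Interferon γ-induced genes had 7 higher and 17 lower, with a median of -0.13, and among them the proteasome genes Psmb9 (658 and 462 CPM) and Psme2 (677 and 462 CPM) were lower, and Tapbp, which loads peptides onto MHC class I, was higher (142 and 249 CPM).

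Immediate early genes had 12 of 15 higher, with a median of 0.23, led by the antiproliferative gene Btg2 at 155 and 337 CPM (1.12) and with Nfkbia, an inhibitor of NF-κB, at 309 and 451 CPM (0.54), while Fos, Fosb and Jun were lower. Glycolysis genes had 5 higher and 8 lower, with a median of -0.23. Ldha, which makes lactate, was at 812 and 563 CPM (-0.53), and Hif1a, the hypoxia factor, at 239 and 348 CPM (0.54).

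With the same limits, the 12 genes of the largest ratios above 1 fell into those carried by few barcodes and those spread over many. Csf2 and Gzma, as above, had nearly all their PEP-619WW UMIs in 1 barcode each. The plasma cell genes Jchain (45.1 and 612 CPM) and Mzb1 (25.8 and 228 CPM) had 116 of 236 and 42 of 88 UMIs in 1 barcode, and without the 4 barcodes of over 1% immunoglobulin UMIs their log2 ratios were 0.71 and 0.05. The other 8 were seen in 22 to 34 of 50 PEP-619WW members and in 4 to 7 of 26 PEP-WT members. These were Gm12840, Zfp36l1, N4bp2l2, Cirbp, Bcl2l11, Ctsw, Atf7ip and Map4k4. Zfp36l1, which promotes decay of mRNAs with AU-rich ends, was at 64.5 CPM (7 of 26) and 223 CPM (29 of 50), log2 1.79, but only 0.21 as a ratio of means over barcodes (165 and 191 CPM). Cirbp, a cold-inducible RNA-binding protein, was at 51.6 CPM (7 of 26) and 161 CPM (33 of 50), log2 1.64, and 2.05 by means over barcodes.

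Members divided by Tcf7 and Gzmb, a division chosen after values had been seen. Gzmb without Tcf7 was found in 10 of 26 PEP-WT members (38.5%, 20.2 to 59.4) and 18 of 50 PEP-619WW members (36.0%, 22.9 to 50.8), and Tcf7 without Gzmb in 11 (42.3%) and 20 (40.0%). Both were found in 1 and 4 members and neither in 4 and 8. The shares of the Gzmb members differed by -2.46 points (-24.9 to 18.7) and those of the Tcf7 members by -2.31 points (-24.8 to 19.4), so the makeup was not distinguishable between genotypes, with wide intervals. Thinned to 2000 UMIs, Gzmb alone was in 5 of 25 and 16 of 50 members and Tcf7 alone in 8 and 13.

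Several genes stood apart between Gzmb and Tcf7 members in both libraries. Nkg7 was at 2216 against 468 CPM in PEP-WT and 1861 against 386 CPM in PEP-619WW, and every member with a Gzmb UMI, 11 of 11 and 22 of 22, also had Nkg7. Ccl4 was at 2651 against 16.7 CPM and 2677 against 0 CPM, and Ifng at 541 against 83.5 CPM and 338 against 56.0 CPM. These UMIs were not limited to Gzmb members, since the 8 PEP-619WW members with neither gene held Ifng at 442 CPM (25 UMIs in 4 members) and Ccl4 at 1767 CPM (100 UMIs in 2 members). The 4 such PEP-WT members had 0 UMIs of Ifng and 2 of Ccl4. Cxcr6 and Ccl5, genes of the rule, followed Gzmb, at 356 against 83.5 CPM and 428 against 5.60 CPM for Cxcr6 and 7334 against 518 CPM and 9660 against 481 CPM for Ccl5. On the Tcf7 side, Il7r was at 351 against 0 CPM and 358 against 8.24 CPM, Bcl2 at 251 against 0 CPM and 498 against 90.6 CPM, and Tnfsf8 at 134 against 0 CPM and 297 against 24.7 CPM. Other genes did not divide this way. Cxcr3 was at 185 against 150 CPM in PEP-WT and 124 against 263 CPM in PEP-619WW, and Ptpn22 at 224 against 317 CPM and 395 against 190 CPM. In PEP-WT the intervals of the Gzmb and Tcf7 members overlapped for both genes, at 101 to 310 and 68.7 to 285 CPM for Cxcr3 and 131 to 359 and 191 to 496 CPM for Ptpn22. Ly6c2 was at 686 against 518 CPM and 1260 against 358 CPM. The Tcf7 members, about as many as the Gzmb members, were thus low in Ccl4, Ifng and Nkg7 beside the Gzmb members. They held Cxcr3 and Ly6c2, but Tbx21 had only 3 UMIs in them in each library. Their Nkg7 lay above the 121 and 127 CPM of Tfh-like barcodes, which by definition lacked the effector sum. Their follicular list outside the rule, which includes Tcf7, was at 2639 and 3599 CPM. That list was at 1332 and 1721 CPM in Gzmb members and 4787 and 5373 CPM in Tfh-like barcodes.

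Genotype ratios were also taken on each side of this division, and differences between the sides were not tested. Among Gzmb members, Id2 was at 422 and 955 CPM in PEP-WT and PEP-619WW, log2 1.18 (0.60 to 1.79), Selplg at 264 and 585 CPM (1.15), Ly6c2 at 686 and 1260 CPM (0.88, 0.41 to 1.36) and Il18rap at 132 and 371 CPM (1.49). Among Tcf7 members Id2 was at 167 and 185 CPM and Ly6c2 at 518 and 358 CPM, with intervals that included no difference, and Il18rap had 0 UMIs in PEP-WT and 23 in PEP-619WW. Il18rap was thus higher in PEP-619WW on both sides. In members with neither gene it was at 384 and 159 CPM (5 and 9 UMIs), log2 -1.27 (-3.00 to 0.65). Among members with neither gene Id2 went the other way, at 768 CPM in PEP-WT (10 UMIs, all in 1 of 4 members) and 230 CPM in PEP-619WW (13 UMIs in 6 of 8), log2 -1.74 (-3.05 to -0.39). Slamf6 was at 184 CPM (5 of 11) and 560 CPM (20 of 20) in Tcf7 members, log2 1.61 (0.71 to 2.65), and at 132 and 98.8 CPM in Gzmb members. In Tcf7 members 2310001H17Rik was at 150 and 476 CPM (1.66), Bcl2 at 251 and 498 CPM (0.99) and Itgb1 at 384 and 795 CPM (1.05). These were higher in PEP-619WW among Gzmb members too, at log2 0.91 (-0.82 to 2.99) for 2310001H17Rik and 0.74 (-0.26 to 1.83) for Itgb1, and with 0 and 11 UMIs for Bcl2. Ptpn22 had a log2 ratio of 0.82 (-0.01 to 1.71) in Gzmb and -0.74 (-1.59 to 0.15) in Tcf7 members. S phase genes were lower on both sides, at log2 -1.01 and -1.26, and so were G2 and mitosis genes, at -0.86 and -0.37. Among the 4 and 8 members with neither gene, the S phase list was higher in PEP-619WW, at log2 0.96 (0.27 to 1.73) on 19 and 161 UMIs, 100 of them in 1 barcode, while the G2 and mitosis list was lower (-1.11). The Tcf7 members of PEP-619WW had a median depth of 8083.5 UMIs against 4616 in PEP-WT, which bears on the numbers of barcodes with a UMI.

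**Figure D5:**
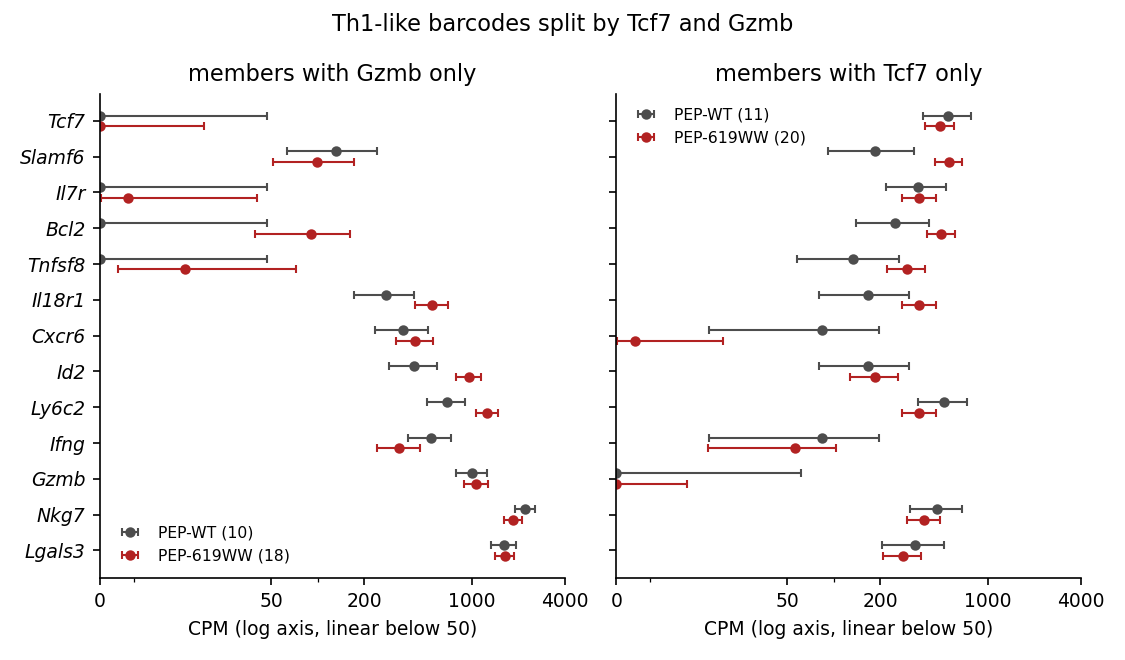
Level (CPM, x axis, logarithmic above 50 and linear below) of 13 genes in Th1-like barcodes with Gzmb and no Tcf7 (10 PEP-WT, 18 PEP-619WW) and with Tcf7 and no Gzmb (11 and 20). Points are CPM and lines exact 95% Poisson intervals. Id2 and Ly6c2 are higher in PEP-619WW among the Gzmb members (955 against 422 CPM and 1260 against 686 CPM), and Slamf6 among the Tcf7 members (560 against 184 CPM).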

How the data were processed

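Droplet single-cell RNA-seq of 1 library per genotype (PEP-WT and PEP-619WW) was analysed, in 2 deposited runs per genotype. The authors deposited tables of UMI counts per gene and cell barcode made with Cell Ranger against mm10. The submitters' processing notes name version 6.0.0, and the study's methods name another. No source used here states how the 2 runs relate, and the barcode numbers in the study's methods are those of the second run (9539 and 11029). The deposited counts hold 32285 genes by identifier, of which 32158 were matched to a symbol.

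Members, Tfh-like, other CD4 and effector CD8 barcodes were chosen by UMI thresholds in the first run. UMIs were summed per library and kind and divided by their total (CPM). Genes were called at a 2-fold ratio, over at least 50 UMIs for counts of genes and at least 20 for list members. Barcodes were thinned to 2000 or 1000 UMIs with a fixed seed. Python 3.11.15, numpy 2.4.6, scipy 1.17.1 and matplotlib 3.10.9 were used, and the scripts were tested on simulated data. No doublet caller was run. The gate leaves out barcodes with Cd8a, Cd8b1, Cd79a or Csf1r UMIs, and 1 member, of PEP-619WW, had over 20000 UMIs. Total UMIs were 77916082 in PEP-WT and 56745578 in PEP-619WW, with medians of 2832 and 3293 per barcode.

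Named were the genes of the rule, and the up to 12 genes a direction with the largest ratio of at least 2-fold over at least 50 UMIs. Their interval had to leave out 1 and their mean over barcodes to go the same way, and immunoglobulin, hemoglobin, ribosomal, mitochondrial and gate genes were left out. Also named were the 10 leading genes a direction against Tfh-like barcodes, examples from the lists, and Ptpn22. The members and lists were chosen with earlier results of these data known. List members named with under 50 UMIs (such as Tbx21, Il12rb2, Prf1, Ccna2, Chaf1a, Rrm2, Cd200, Stat2, Ifit1 and Il1rl1) and the genes named against other CD4 and effector CD8 barcodes were chosen after their values were seen. Alternatives changed the normalization, UMI minimum, fold, gate, depth and run, and left out barcodes. Promoter sequences are those of RefSeq (GRCm38.p6).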

Additional observations from a re-analysis of the deposited data

Results flagged for a closer look

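The second run, which the comparisons between genotypes do not use, held 70 Th1-like barcodes of PEP-619WW and 1 of PEP-WT, out of 152 and 2 CD4 barcodes. The 70 had 374616 UMIs with a median of 3385.5, and Nkg7 at 916 CPM (43 of 70), Gzmb at 109 CPM (8 of 70), Ifng at 82.8 CPM (16 of 70) and Id2 at 1022 CPM. No PEP-WT level can be set beside them.

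In 3 lists the ratio of PEP-619WW over PEP-WT had opposite signs in members and in another kind of T cell, with intervals on either side of 0, and none of these differences was tested. Follicular helper genes outside the rule had a log2 ratio of 0.447 in Th1-like and -0.209 in effector CD8 barcodes. In Tfh-like barcodes they were at 0.166, as in members higher, and in other CD4 barcodes at -0.229. Immediate early genes stood at 0.275 in Th1-like and -0.203 in Tfh-like barcodes. They were at 0.167 in effector CD8, as in members higher, and at -0.071 in other CD4 barcodes. Glycolysis genes stood at -0.125 in Th1-like and 0.166 in effector CD8 barcodes. They were lower in Tfh-like (-0.269) and other CD4 (-0.631) barcodes too, so here the effector CD8 barcodes stood apart.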

How the results depend on the processing

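The share of Th1-like barcodes was higher in PEP-619WW in all alternatives except the second run, where the difference was -3.95 points on 1 PEP-WT member, and it was 5.98 points when thinned to 1000 UMIs. The numbers of genes at least 2-fold higher and lower (53 and 36) of 1592 genes became 8 and 4 of 379 with members thinned to 2000 UMIs, 261 and 189 of 3786 with a minimum of 20 UMIs, 14 and 12 of 733 with a minimum of 100, and 13 and 3 of 1592 at 3-fold. Without the top barcode of each gene 63 of 1367 were higher and 19 lower. Without barcodes over 20000 UMIs 49 and 49 of 1517 were, and without those over 1% immunoglobulin UMIs 46 and 44 of 1456. By mean over barcodes the list medians were -0.72 (G2 and mitosis), -0.89 (S phase) and 0.33 (follicular), and when thinned to 2000 UMIs -0.64, -0.79 and 0.39, with cytotoxic -0.15 and type I interferon -0.14. With a sum of at least 3 they were -0.54, -0.71 and 0.34, with type I interferon -0.22. Without Ccl5 in the rule they were -0.33 (G2 and mitosis), -1.0 (S phase), 0.44 (cytotoxic) and 0.079 (type I interferon). Without barcodes over 20000 UMIs the S phase median was -1.36, and without those over 1% immunoglobulin UMIs the G2 and mitosis median was -0.75. Without the top barcodes the latter was -0.75 and type I interferon 0.10. Among single genes, Gzmk turned to 0.32 when thinned to 2000 UMIs and Gzma to -1.31 without the top barcodes. The causes were not tested. Leaving out barcodes for immunoglobulin UMIs, and the top barcode of each gene, were chosen after seeing the data. Leaving out all barcodes with any marker of another cell type left 0 members, since nearly all hold an Igkc UMI. No paired analysis was possible because each genotype had 1 library. Another scaling moved all log2 ratios by 0.066. Depth limits all counts of barcodes with a UMI.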
